A study of Mus musculus with 6 samples.

Results

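Complement components and regulators were followed in RNA of primary hepatocytes from alcohol-fed mice that carried or lacked a deletion of S100a16, which encodes a calcium-binding protein. The 35 genes were chosen by name for their place in the complement system, not by a threshold on their values, and all 35 were found among the 25718 genes of the expression table. Hepatocytes of WT mice and of S100a16KO+/- mice were compared, with 3 libraries in each group. The mice were young adult males on a C57BL/6 background. Every animal received an ethanol liquid diet and then a gavage of ethanol, so that alcohol was common to both groups and no library came from a mouse on control diet. The S100a16KO+/- mice were heterozygotes whose floxed exons had been removed with EIIa-Cre, which acts in the early embryo, so the lost allele was not limited to the liver. The labels call the same group a knockdown. The hepatocytes were obtained by collagenase digestion and a Percoll step, which can leave other liver cells in the preparation.

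Complement is a cascade of plasma proteins that marks microbes and damaged cells for removal. The classical pathway starts with C1q on bound antibody, the lectin pathway with mannose-binding lectins, ficolins and collectins on sugars, and the alternative pathway with the spontaneous turnover of C3. All of them cleave C3 and then C5 and end in the membrane attack complex of C5b to C9. Hepatocytes make most of the circulating components, whereas C1q and properdin come largely from macrophages and other myeloid cells, and factor D from fat. Regulators in plasma and on cell surfaces limit the cascade, and the receptors for the fragments C3a and C5a are carried mainly by myeloid cells.

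S100a16, the deleted gene, had 1001, 1056 and 1107 estimated counts in WT replicates 1, 2 and 3. The S100a16KO+/- replicates had 433, 390 and 366, each below every WT library. Library totals lay between 67658095 and 71807834 estimated counts. The first principal component of all tested genes, with 58.9% of the variance, separated the genotypes, and the second, with 12.8%, set WT replicate 1 and S100a16KO+/- replicate 2 apart from the other libraries. Markers of hepatocytes were abundant in every library, with 1 of 8 higher and 2 of 8 lower in S100a16KO+/- hepatocytes and a summed level of 110385 to 121846 CPM (counts scaled to library size) in WT and 107096 to 118515 CPM in S100a16KO+/- libraries. Higher and lower stand for an adjusted p under 0.05 (edgeR). Over all tested genes 11.6% were higher and 11.2% lower, and among those with a mean of at least 32 CPM 21.5% and 26.9%. Markers of sinusoidal endothelial cells were higher in 7 of 8 cases and lower in 1, with summed levels of 236 to 249 CPM in WT and 341 to 349 CPM in S100a16KO+/- libraries. Markers of stellate cells and fibroblasts were higher in 5 of 9 cases, with 55.7 to 60.8 CPM and 93.4 to 107.9 CPM, and all 5 markers of red blood cells were lower, with 215 to 252 CPM and 23.4 to 26.3 CPM. Fewer cells of a type and less RNA per cell cannot be told apart in such samples. No label ties a library to its own animal, and p values then measure only the spread between these libraries.

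Complement transcripts were abundant in the hepatocytes of both genotypes. The level per transcript length is given as FPKM, which scales fragments by transcript length and library size. C3, the protein on which all pathways meet, was the highest of the 35 genes and ranked 45 among all 25718 genes, with 1243, 1420 and 1326 FPKM in the WT libraries and 1583, 1500 and 1532 FPKM in the S100a16KO+/- libraries. Vtn, which encodes vitronectin, an inhibitor of the membrane attack complex, ranked 63 among all genes with a mean of 928 FPKM. Both genes were far above the rest of the group. Cfb, Clu and Cfi came next, with means over all 6 libraries of 297, 280 and 262 FPKM, and 11 of the 35 genes had a mean of at least 100 FPKM. C3 alone made up between 30.2% and 31.7% of the summed FPKM of the 35 genes in each library, and the 5 highest genes between 68.3% and 69.7%. At the other end, Cfd and C7 were not measurable, and of the 33 genes with enough counts for a test the lowest were Cd46, C5ar1 and C3ar1, all of them membrane proteins, with means of 0.256, 0.335 and 0.463 FPKM. The 35 genes together took 0.777%, 0.887% and 0.853% of all FPKM in WT and 1.02%, 0.911% and 0.994% in S100a16KO+/- hepatocytes, so the genotypes did not overlap in this share.

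**Figure D1:**
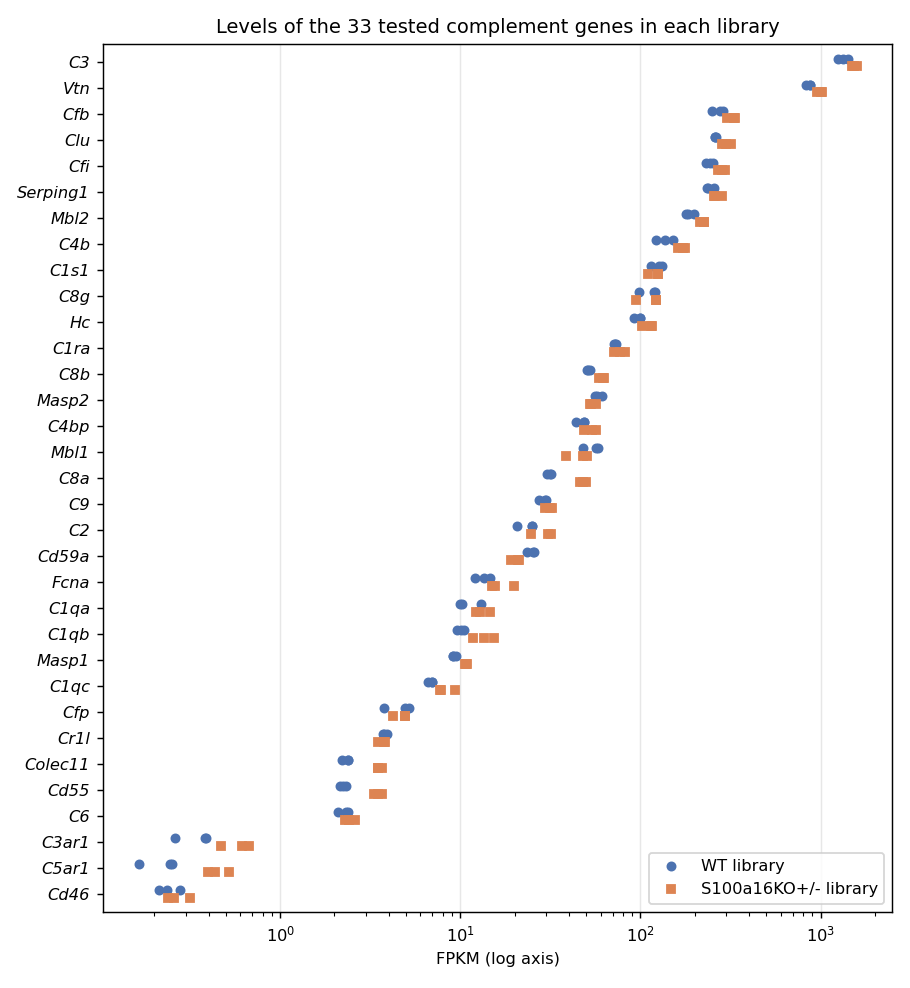
FPKM of the 33 tested complement genes on a log axis, one line per gene, with circles for the 3 WT libraries and squares for the 3 S100a16KO+/- libraries. C3 and Vtn stand at the top of the range, near 1000 FPKM or above, and the receptors C5ar1 and C3ar1 and the regulator Cd46 lie under 1 FPKM.

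Most complement genes that changed were higher in S100a16KO+/- hepatocytes, and the differences were small. Of the 33 genes with enough counts for a test, 19 were higher and 2 lower at an adjusted p under 0.05 (edgeR, Benjamini-Hochberg over all 15957 tested genes), and 12 did not pass. Over all tested genes 22.8% were called, 11.6% higher and 11.2% lower, against 57.6% of the complement genes higher and 6.06% lower. The median log2 fold change was 0.20 over the 33 genes and 0.01 over all tested genes, and 27 of the 33 values were positive. Abundant genes are called more often, and among the 2781 whose mean reached 32 CPM, 48.4% were called, 21.5% higher and 26.9% lower. Of the 22 complement genes at this level 13 were higher and 2 lower, with a median of 0.19 against -0.03 for all genes of this abundance. Of the 21 called genes 20 differed by less than 2-fold, and 13 of the 19 higher genes had a log2 fold change under 0.35. The study's criterion of an unadjusted p under 0.05 and at least 2-fold was met by C5ar1 alone, beside 4.52% of all tested genes. The libraries of the genotypes did not overlap in 23 of the 33 genes, 20 of them higher (60.6%) and 3 lower (9.09%), against 19.2% higher and 18.6% lower over all tested genes. Clu was the called gene whose libraries overlapped.

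**Figure D2:**
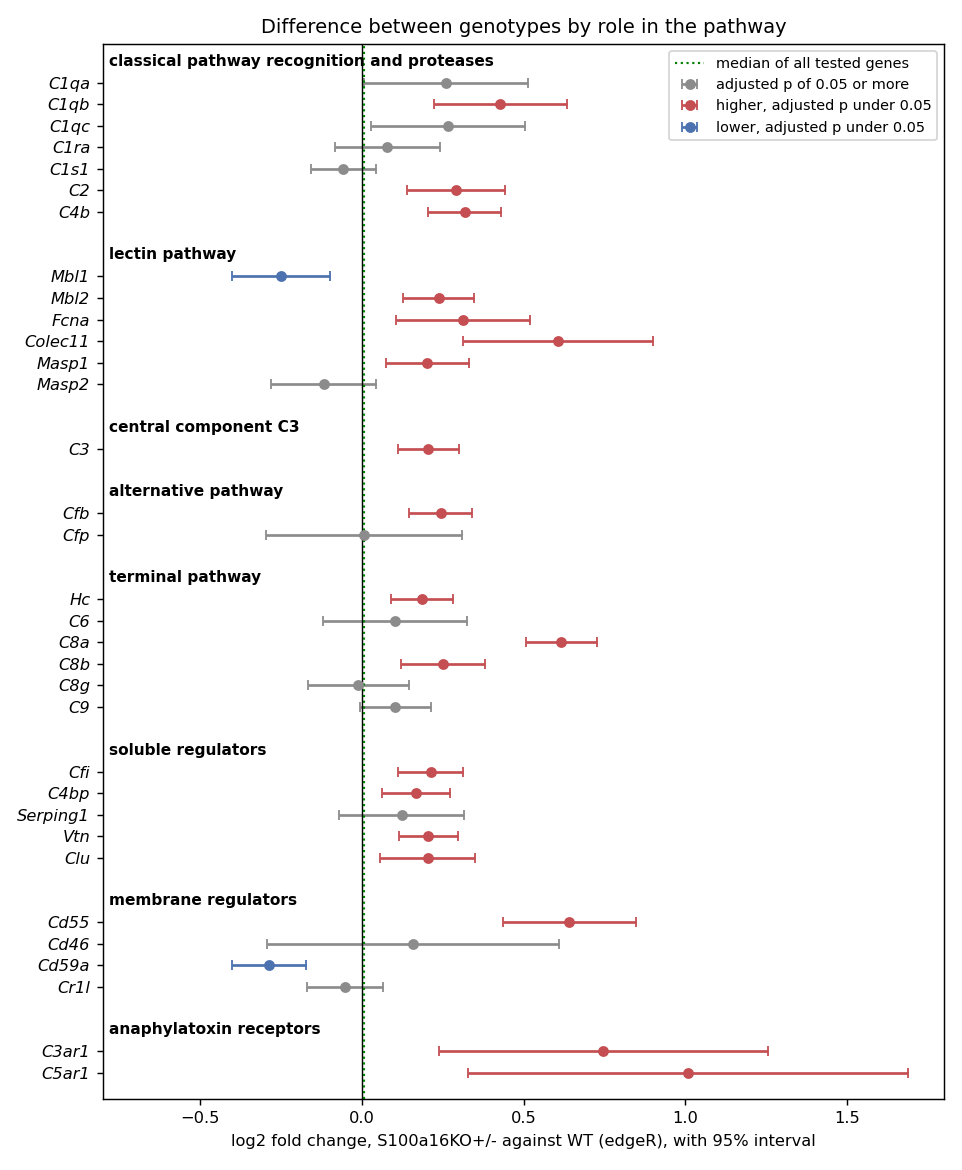
Log2 fold change of S100a16KO+/- against WT hepatocytes for the 33 tested complement genes, grouped by role, with 95% intervals of the edgeR fit. Red marks the 19 higher genes, blue the 2 lower genes (Mbl1 and Cd59a) and grey the 12 that did not pass, and the dotted line is the median of all tested genes at 0.01.

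In the classical pathway, C4b, C2 and C1qb were higher in S100a16KO+/- hepatocytes and none of the 7 genes was lower. C4b encodes C4, which C1s cleaves and which binds to the target surface. Its level was 821, 933 and 858 CPM in the WT libraries and 1107, 1092 and 1056 CPM in the S100a16KO+/- libraries. All S100a16KO+/- libraries lay above all WT libraries, a difference of 24.6% (log2 fold change 0.32 ± 0.05, SE, adjusted p = 0.000463, edgeR). C2, the protease that joins C4b in the C3 convertase, had 94.4, 104.7 and 107.2 CPM in WT and 130.1, 112.6 and 132.1 CPM in S100a16KO+/- libraries. The lowest S100a16KO+/- library was close to the highest WT library, and the log2 fold change was 0.29 ± 0.07 (adjusted p = 0.00762).

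The 3 chains of C1q, the recognition molecule that binds antibody and dying cells, lie side by side on chromosome 4. C1qb had 12.3, 11.9 and 12.6 CPM in WT and 18.4, 15.2 and 15.8 CPM in S100a16KO+/- libraries, without overlap, and rose by 0.43 ± 0.10 on the log2 scale (edgeR, adjusted p = 0.00476). C1qa and C1qc had log2 fold changes of 0.26 and 0.27, with unadjusted p under 0.05 and adjusted p of 0.139 and 0.104, and the C1qc libraries did not overlap. C1qb passed the test and the others did not. The ratio of C1qb to C1qa in FPKM was 0.922 ± 0.140 (SD, n = 3) in WT and 1.04 ± 0.199 in S100a16KO+/- libraries, with overlapping groups (exact two-sided permutation test, p = 0.5, adjusted p = 0.5 over 5 ratios). The smallest p that the 20 assignments of this test allow is 0.1, so it could not decide whether C1qb differed from C1qa. C1ra and C1s1, which encode the proteases that C1q activates, had log2 fold changes of 0.08 and -0.06 (adjusted p = 0.521 and 0.450). For C1s1 the 95% interval ran from -0.16 to 0.04.

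Several of these genes share sequence with a neighbour, and the deposited counts do not show how reads were divided. Of the 31-base words in the transcripts of C4b, 48.3% also occur in those of another gene, mostly C4a, and the shares were 59.3% for C1ra with C1rb, 33.5% for C1s1 with C1s2 and 40.8% for C2 with Gm20547, which also covers Cfb. C4a itself was at a mean of 18.4 CPM in WT and 21.7 CPM in S100a16KO+/- libraries, far below C4b, and Gm20547 had at most 75 counts in any library.

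The lectin pathway held rises and a fall. Mbl2, Colec11, Fcna and Masp1 were higher in S100a16KO+/- hepatocytes, and Mbl1 was lower. Mbl1 and Mbl2 encode the mannose-binding lectins A and C, which recognise sugars on microbes and activate the same proteases. The 250 bases before the starts of both genes are shown because the genes moved in opposite directions. They come from RefSeq on GRCm38.p6, at chr14:41151206-41151455 for Mbl1 and chr19:30232678-30232927 for Mbl2, both on the plus strand, and the capitals mark the longest run of bases that both share, 13 bases long.
Mbl1: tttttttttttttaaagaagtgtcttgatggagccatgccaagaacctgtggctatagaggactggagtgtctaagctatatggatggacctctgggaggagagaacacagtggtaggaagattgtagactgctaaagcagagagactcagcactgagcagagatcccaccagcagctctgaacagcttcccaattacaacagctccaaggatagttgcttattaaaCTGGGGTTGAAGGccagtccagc
Mbl2: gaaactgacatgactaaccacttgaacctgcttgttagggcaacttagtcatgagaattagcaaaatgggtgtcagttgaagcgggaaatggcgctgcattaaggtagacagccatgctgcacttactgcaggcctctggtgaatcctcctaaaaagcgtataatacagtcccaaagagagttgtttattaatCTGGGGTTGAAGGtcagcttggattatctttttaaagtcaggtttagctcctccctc
The run lay 23 to 11 bases before the start of Mbl1 and 57 to 45 bases before that of Mbl2, inside a stretch of 30 bases of which 27 were the same in both.

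Mbl2 had 228.8, 217.6 and 238.0 CPM in WT and 269.7, 273.5 and 263.6 CPM in S100a16KO+/- libraries, a rise of 17.9% (log2 fold change 0.24 ± 0.05, adjusted p = 0.00373, edgeR). Mbl1 had 88.6, 95.8 and 100.05 CPM in WT and 86.3, 71.9 and 81.1 CPM in S100a16KO+/- libraries, and it fell by 0.25 ± 0.07 on the log2 scale (adjusted p = 0.0206). For both genes the libraries of the genotypes were apart, with a narrow gap for Mbl1. In FPKM, Mbl2 exceeded Mbl1 by a ratio of 3.72, 3.27 and 3.43 in WT and 4.503, 5.49 and 4.68 in S100a16KO+/- hepatocytes. This ratio was higher in every S100a16KO+/- library, with a log2 difference of 0.49 (exact two-sided permutation test, p = 0.1, the smallest that 20 assignments allow, adjusted p = 0.125 over 5 ratios chosen after their values were seen). The call of Mbl1 depended on single libraries, since the adjusted p was 0.0738 without WT replicate 2, 0.102 without WT replicate 3, 0.0653 without S100a16KO+/- replicate 2 and 0.0534 without S100a16KO+/- replicate 3.

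Colec11, a collectin that also guides cells in development, had the largest fold of the lectin genes at a low level, with 4.55, 3.89 and 4.25 CPM in WT and 6.25, 7.03 and 6.05 CPM in S100a16KO+/- libraries. Its groups were well apart (log2 fold change 0.61 ± 0.14, adjusted p = 0.00516, edgeR). Fcna, which encodes ficolin A, had 19.5, 21.9 and 20.5 CPM in WT and 29.7, 24.2 and 22.9 CPM in S100a16KO+/- libraries. Replicate 1 stood above the other S100a16KO+/- libraries, and the rise of 0.31 ± 0.10 on the log2 scale (adjusted p = 0.0316) lost its call without that library (0.19, adjusted p = 0.176), without WT replicate 1 (0.105) and without WT replicate 3 (0.0968). An antisense gene, Fcnaos, covers the whole of Fcna on the other strand, with at most 26 counts in a library, and whether the counting used strand is not given in the sources used here.

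Masp1, a protease of the lectin pathway, had 106.2, 101.4 and 98.6 CPM in WT and 115.0, 126.0 and 111.3 CPM in S100a16KO+/- libraries (log2 fold change 0.20 ± 0.06, adjusted p = 0.0251, edgeR). The groups did not overlap, and the call was lost without WT replicate 2 (adjusted p = 0.0876), WT replicate 3 (0.115), S100a16KO+/- replicate 1 (0.0553) or S100a16KO+/- replicate 2 (0.0817). Masp2, the protease that cleaves C4 and C2, had a log2 fold change of -0.12 (95% interval -0.28 to 0.04, adjusted p = 0.308). Masp2 overlaps 3118 bases of Tardbp on the opposite strand.

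C3 itself was higher in S100a16KO+/- hepatocytes by 15.3%. Its 250 bases before the start, at chr17:57228137-57228386 on the minus strand of GRCm38.p6 (RefSeq), are shown because C3 carries the largest share of complement RNA, and the capitals mark the letters TTGCNNAA, a form of the C/EBP motif.
C3: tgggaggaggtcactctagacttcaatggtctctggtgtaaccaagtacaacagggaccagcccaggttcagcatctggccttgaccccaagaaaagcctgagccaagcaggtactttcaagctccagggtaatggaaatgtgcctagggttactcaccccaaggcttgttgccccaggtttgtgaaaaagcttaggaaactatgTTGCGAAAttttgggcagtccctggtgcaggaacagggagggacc
The match lies 45 bases before the start. The same letters, read on both strands, occur in the same 250 bases of 3 of the 27 complement genes with a RefSeq window (C3, C1s1 and C9) and in 9.56% of all 32851 windows of this length.

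C3 had 7536, 7916 and 7508 CPM in the WT libraries and 8912, 9102 and 8451 CPM in the S100a16KO+/- libraries. Each S100a16KO+/- library exceeded each WT library (log2 fold change 0.20 ± 0.04, adjusted p = 0.00348, edgeR). Without WT replicate 3 the adjusted p was 0.0521. Cfb, the protease of the alternative pathway convertase, had 829.5, 880.9 and 861.9 CPM in WT and 1037, 1009 and 1000.1 CPM in S100a16KO+/- libraries, again without overlap (log2 fold change 0.24 ± 0.05, adjusted p = 0.00120). C2, Cfb and C4b lie within the same stretch of chromosome 17, and Cfb shares 75.5% of its 31-base words with another gene, mostly Gm20547.

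The other members of the alternative pathway were low or near absent. Cfp, which encodes properdin, the stabiliser of that convertase, had a mean of 9.04 CPM in WT and 9.10 CPM in S100a16KO+/- libraries (log2 fold change 0.01, 95% interval -0.29 to 0.31, adjusted p = 0.978, edgeR). Cfd, the protease factor D that activates factor B, was at 0 in 5 libraries and had 9 estimated counts in S100a16KO+/- replicate 1. A count of 0 allows up to 12 estimated counts, so Cfd was under the limit of detection in all 6 libraries and was not tested.

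The terminal pathway, which builds the membrane attack complex, rose in part. Hc, C8a and C8b were higher in S100a16KO+/- hepatocytes, and C6, C8g and C9 did not pass the test. C7 had 4 estimated counts in S100a16KO+/- replicate 1 and 0 elsewhere and was not tested. Hc, the mouse gene of C5, had 683.6, 673.7 and 685.0 CPM in WT and 794.8, 758.0 and 771.4 CPM in S100a16KO+/- libraries. The WT libraries lay close together and below all others (log2 fold change 0.19 ± 0.04, adjusted p = 0.00707, edgeR), and without S100a16KO+/- replicate 1 the adjusted p was 0.0530.

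C8a, C8b and C8g encode the alpha, beta and gamma chains of C8, which join in equal numbers in the protein. Their differences between the genotypes were unequal. The 250 bases before C8a (chr4:104876399-104876648, minus strand) and C8g (chr2:25501720-25501969, minus strand), from RefSeq on GRCm38.p6, are shown for these unlike partners, and the capitals in C8a mark the letters TTCNNNGAA, a form of the STAT motif, 228 bases before the start.
C8a: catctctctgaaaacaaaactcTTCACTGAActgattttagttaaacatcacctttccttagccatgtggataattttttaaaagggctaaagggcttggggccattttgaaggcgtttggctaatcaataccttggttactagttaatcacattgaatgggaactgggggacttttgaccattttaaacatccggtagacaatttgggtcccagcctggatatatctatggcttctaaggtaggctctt
C8g: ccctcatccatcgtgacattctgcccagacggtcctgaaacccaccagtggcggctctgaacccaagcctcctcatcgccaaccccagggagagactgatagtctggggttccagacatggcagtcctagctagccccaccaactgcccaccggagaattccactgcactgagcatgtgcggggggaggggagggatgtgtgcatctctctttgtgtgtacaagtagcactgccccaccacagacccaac
None of the 8 motifs searched was found in the window of C8g, which says only that these letters are not in it. The STAT letters occur in 4 of the 27 complement windows (C8a, C7, Colec11 and Masp2) and in 7.02% of all windows. The HNF1 letters occur in the windows of Hc and C4bp and in 0.371% of all windows, the IRF letters in those of Colec11 and Cd59a and in 2.98%, and TGACG in those of C1qb, Masp2, C4bp and Cd55 and in 17.8%. The letters searched for NF-kB, HNF4 and the ER stress response element were in none of the 27 complement windows and in 0.98%, 0.384% and 0.113% of all windows.

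C8a had 129.5, 124.0 and 127.1 CPM in WT and 198.2, 198.6 and 186.7 CPM in S100a16KO+/- libraries, the smallest adjusted p of the group (log2 fold change 0.62 ± 0.05, adjusted p = 7.84e-07, edgeR). C8b, beside C8a on chromosome 4, had 152.8, 143.9 and 141.3 CPM in WT and 173.7, 186.2 and 161.6 CPM in S100a16KO+/- libraries (log2 fold change 0.25 ± 0.06, adjusted p = 0.00767). C8g, on chromosome 2, had 171.7, 195.3 and 196.5 CPM in WT and 198.1, 166.8 and 194.5 CPM in S100a16KO+/- libraries. Its groups overlapped, with a 95% interval of the log2 fold change from -0.17 to 0.15. C8g shares 970 bases with Fbxw5 on the opposite strand, which had 1624 to 1977 estimated counts, and the strand setting is not known. In WT hepatocytes C8a was the lowest of the 3 chains per length, with 31.1 ± 0.814 FPKM (SD, n = 3) beside 51.2 ± 0.902 FPKM for C8b and 112.6 ± 13.0 FPKM for C8g. In S100a16KO+/- hepatocytes the order was the same and the gap smaller, with 48.0 ± 1.77, 61.2 ± 1.73 and 112.5 ± 15.4 FPKM.

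Within libraries, the FPKM ratio of C8a to C8g was 0.279 ± 0.0270 (SD, n = 3) in WT and 0.431 ± 0.0505 in S100a16KO+/- hepatocytes, a log2 difference of 0.63. The ratio of C8a to C8b was 0.608 ± 0.0187 and 0.785 ± 0.0335, a log2 difference of 0.37. Both ratios were higher in every S100a16KO+/- library (exact two-sided permutation test, p = 0.1 for each, the smallest that this design allows, adjusted p = 0.125). C9, which forms the pore, had a log2 fold change of 0.10 (95% interval -0.01 to 0.21, adjusted p = 0.176, edgeR), although its libraries did not overlap, and C6, which binds C5b, had 0.10 (-0.12 to 0.32, adjusted p = 0.555).

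**Figure D3:**
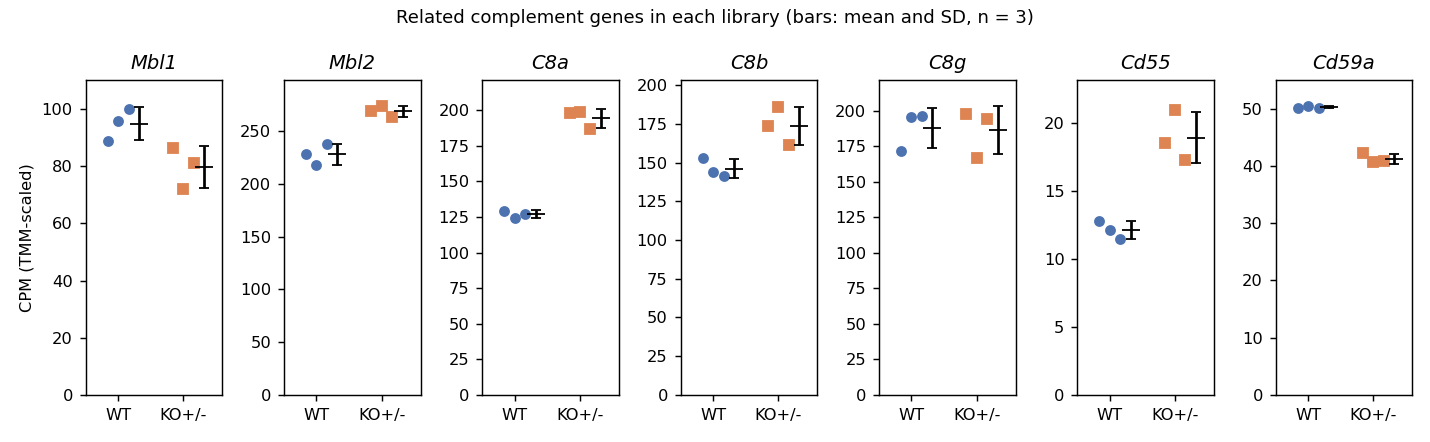
TMM-scaled CPM of 7 related complement genes in each library, with a linear axis from 0 for each gene; circles are WT, squares S100a16KO+/- libraries (marked KO+/-), and black bars the mean and SD of 3 libraries. Mbl1 and Cd59a are lower and Mbl2, C8a, C8b and Cd55 higher in S100a16KO+/- libraries, and the C8g groups overlap.

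Most soluble regulators, which restrain the cascade in plasma, were higher as well. Cfi, C4bp, Vtn and Clu were higher in S100a16KO+/- hepatocytes, with log2 fold changes of 0.21, 0.17, 0.21 and 0.20, and Serping1 did not pass. Cfi, the protease that inactivates C3b and C4b, had 607.7, 585.2 and 615.1 CPM in WT and 719.6, 701.3 and 674.7 CPM in S100a16KO+/- libraries, without overlap (SE 0.05, adjusted p = 0.00428, edgeR). Vtn had 1981, 1933 and 1950.5 CPM in WT and 2273, 2294 and 2193 CPM in S100a16KO+/- libraries, with little spread in either group (SE 0.04, adjusted p = 0.00265). C4bp, a cofactor that directs Cfi to C4b, had 346.5, 354.1 and 360.1 CPM in WT and 416.5, 384.0 and 390.7 CPM in S100a16KO+/- libraries (SE 0.05, adjusted p = 0.0247). The groups were apart, but the adjusted p of C4bp was 0.0886, 0.0836 and 0.0644 without WT replicates 1, 2 and 3 and 0.146 without S100a16KO+/- replicate 1.

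Clu, which encodes clusterin, a chaperone that also blocks the membrane attack complex, had 1056, 974.3 and 979.2 CPM in WT and 1120, 1294 and 1051 CPM in S100a16KO+/- libraries. S100a16KO+/- replicate 3 lay below WT replicate 1, and the adjusted p of 0.0462 (edgeR) was 0.162 without WT replicate 2, 0.166 without WT replicate 3, 0.0751 without S100a16KO+/- replicate 1 and 0.137 without S100a16KO+/- replicate 2, where the log2 fold change was 0.11. Serping1, the inhibitor of C1r, C1s and the MASP proteases, had 705.9, 593.1 and 608.7 CPM in WT and 663.0, 779.1 and 635.0 CPM in S100a16KO+/- libraries. WT replicate 1 and S100a16KO+/- replicate 2 were the highest of their groups, and the log2 fold change was 0.12 (95% interval -0.07 to 0.32, adjusted p = 0.376).

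The membrane regulators moved in both directions. Cd55, the decay-accelerating factor that dismantles C3 convertases, had 12.8, 12.2 and 11.5 CPM in WT and 18.6, 21.005 and 17.3 CPM in S100a16KO+/- libraries, a rise of 56.0% (log2 fold change 0.64 ± 0.10, adjusted p = 0.000199, edgeR). Cd59a, which blocks the pore at its last step, had 50.2, 50.4 and 50.2 CPM in WT and 42.2, 40.6 and 40.8 CPM in S100a16KO+/- libraries, and it fell by 18.0% (log2 fold change -0.29 ± 0.05, adjusted p = 0.00135). The groups were well apart for both genes. The FPKM ratio of Cd55 to Cd59a was 0.0899 ± 0.00501 (SD, n = 3) in WT and 0.171 ± 0.0188 in S100a16KO+/- hepatocytes, with a log2 difference of 0.93 (exact two-sided permutation test, p = 0.1, the smallest possible, adjusted p = 0.125). Cr1l, the mouse regulator also called Crry, had means of 44.1 and 42.5 CPM and a log2 fold change of -0.05 (95% interval -0.17 to 0.07, adjusted p = 0.568), with the S100a16KO+/- libraries just below the WT libraries, and Cd46 was at 2.08 and 2.32 CPM (log2 fold change 0.16, adjusted p = 0.663). Of their 31-base words, Cd55 shares 11.4% with another gene, mostly Cd55b, and Cd59a 9.28%, mostly with Cd59b, which was at a mean of 2.46 CPM in WT and 1.73 CPM in S100a16KO+/- libraries.

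Both anaphylatoxin receptors were higher in S100a16KO+/- hepatocytes, at low levels. C5ar1, the receptor for C5a, had 51, 50 and 32 estimated counts in WT and 101, 85 and 79 in S100a16KO+/- hepatocytes (log2 fold change 1.01 ± 0.32, adjusted p = 0.0338, edgeR). C3ar1, the receptor for C3a, had 133, 86 and 126 estimated counts in WT and 218, 199 and 156 in S100a16KO+/- libraries (log2 fold change 0.75 ± 0.24, adjusted p = 0.0356). The groups did not overlap for either gene, but few fragments lay behind these values and the intervals were wide, from 0.33 to 1.69 for C5ar1 and from 0.24 to 1.255 for C3ar1. Leaving out WT replicate 2, WT replicate 3, S100a16KO+/- replicate 1 or S100a16KO+/- replicate 2 ended both calls, with adjusted p of 0.0575, 0.115, 0.115 and 0.0748 for C5ar1 and 0.136, 0.0662, 0.132 and 0.104 for C3ar1.

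Markers of Kupffer cells and macrophages differed between the genotypes only in part, and not all in the same direction. Of 11 markers, Marco, Cd68, Lyz2 and Mpeg1 were higher in S100a16KO+/- libraries, with log2 fold changes of 0.74, 0.60, 0.33 and 0.31, and Slc40a1, the iron exporter, which hepatocytes also express, was lower at -0.77. Adgre1, Clec4f, Timd4, Csf1r, Cd5l and Folr2, from the same list, did not pass, with log2 fold changes from -0.10 for Adgre1 to 0.24 for Cd5l. Of the 11 log2 fold changes 9 were positive and 2 negative. The summed level of the 11 markers was 293 to 336 CPM in WT and 259 to 292 CPM in S100a16KO+/- libraries, of which Slc40a1 made up the largest part. Without Slc40a1, left out after its values were seen, the other 10 markers summed to 148 to 178 CPM in WT and 176 to 194 CPM in S100a16KO+/- libraries. None of the 11 was at 0 in every library. Neutrophil markers, of which 5 were tested, had a median log2 fold change of 0.59 with none called and summed levels of 3.62 to 5.81 CPM and 5.87 to 7.39 CPM. Lymphocyte markers had 1 of 8 lower and a median of 0.03, with summed levels of 3.38 to 3.76 CPM and 2.73 to 4.05 CPM, and cholangiocyte markers 1 of 4 lower and a median of 0.32. Cfp, also known from macrophages, had a log2 fold change of 0.01. The part of these cells in the values of C1qa, C1qb, C1qc, Fcna, Cfp, C3ar1 and C5ar1 was not tested, nor was that of the endothelial and stellate cell markers in the values of Colec11 and Cd55.

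**Figure D4:**
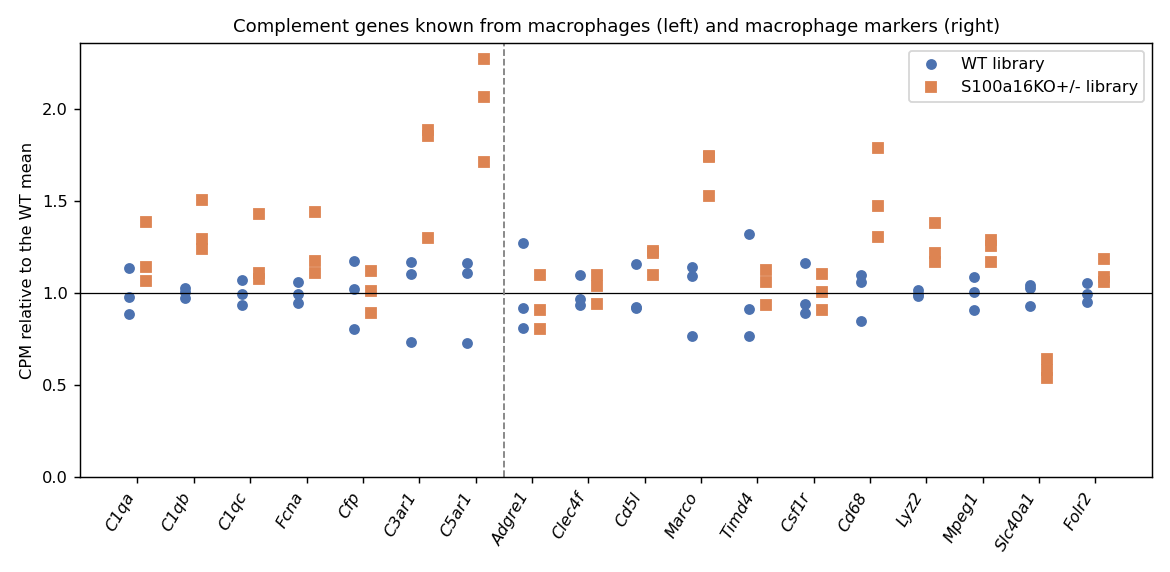
CPM of each library divided by the WT mean of the same gene, for 7 complement genes known from macrophages (left of the dashed line) and 11 Kupffer cell and macrophage markers (right); circles are WT and squares S100a16KO+/- libraries. C1qa, C1qb, C1qc, Fcna, C3ar1 and C5ar1 lie above the WT mean in all 3 S100a16KO+/- libraries. So do Marco, Cd68, Lyz2, Mpeg1, Cd5l and Folr2. The S100a16KO+/- libraries of Cfp, Adgre1, Clec4f, Timd4 and Csf1r lie on both sides of the WT mean, and those of Slc40a1 below it.

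Other genes of the pathway outside the 35 were taken from a list of 25. Of these, 23 were in the table and 20 were tested, with 5 higher and none lower at an adjusted p under 0.05 (edgeR) and a median log2 fold change of 0.20. The share called in either direction, 25.0%, was near the 22.8% over all tested genes. By direction it was 25.0% higher and 0% lower, beside 11.6% higher and 11.2% lower over all tested genes. Cpn1 and Cpn2, the subunits of carboxypeptidase N, which trims C3a and C5a, were among the 5 higher genes and rose by 0.23 and 0.18 on the log2 scale (adjusted p = 0.00441 and 0.0285). Cpn2 lost its call without WT replicate 1 (adjusted p = 0.0783), 2 (0.0760) or 3 (0.104) and without S100a16KO+/- replicate 1 (0.119) or 2 (0.0723). Itgax and Itgb2, chains of the complement receptor CR4 of myeloid cells, rose by 1.73 ± 0.40 and 0.67 ± 0.16 (adjusted p = 0.00636 and 0.00841), and Itgax was low, with 0.322, 0.554 and 0.205 CPM in WT and 0.996, 1.32 and 1.28 CPM in S100a16KO+/- libraries. Itgam, the partner chain of CR3, had a log2 fold change of 0.43 and an adjusted p of 0.585.

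WT replicate 1 and S100a16KO+/- replicate 2, which stood apart on the second principal component, also departed from their groups in the same complement genes. Their deviations from the group means on the log2(CPM + 1) scale correlated with r = 0.75 over the 33 genes and r = 0.08 over all 15957 tested genes, a description without a test, since genes of a library are not independent. Over the 33 genes the other pairs of a WT and a S100a16KO+/- library ran from -0.54 to 0.56, the highest for WT replicate 3 with S100a16KO+/- replicate 1. Deviations within a group cancel out, so the values of the pairs are tied. WT replicate 1 was the highest WT library and S100a16KO+/- replicate 2 the highest S100a16KO+/- library in 12 of the 33 genes (36.4%), against 16.8% of all tested genes. Both were the lowest of their groups in 6 of the 33 genes (18.2%), a share near the 16.5% of all tested genes. Serping1, Masp2, Cfp, C3ar1, C1ra and Clu were high in both libraries, and C8g, C2 and Mbl1 were low in both. The TMM factors, which scale for library composition, were 0.951 and 0.948 in these 2 libraries and 1.01 to 1.04 in the others, and their part was not tested. Without both libraries, 16 complement genes were higher and 2 lower, with a median of 0.17. Over all 16191 genes tested in this setting 21.1% were called. The calls lost were those of Fcna (adjusted p = 0.0690, edgeR), C3ar1 (0.0764) and C5ar1 (0.0720).

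**Figure D5:**
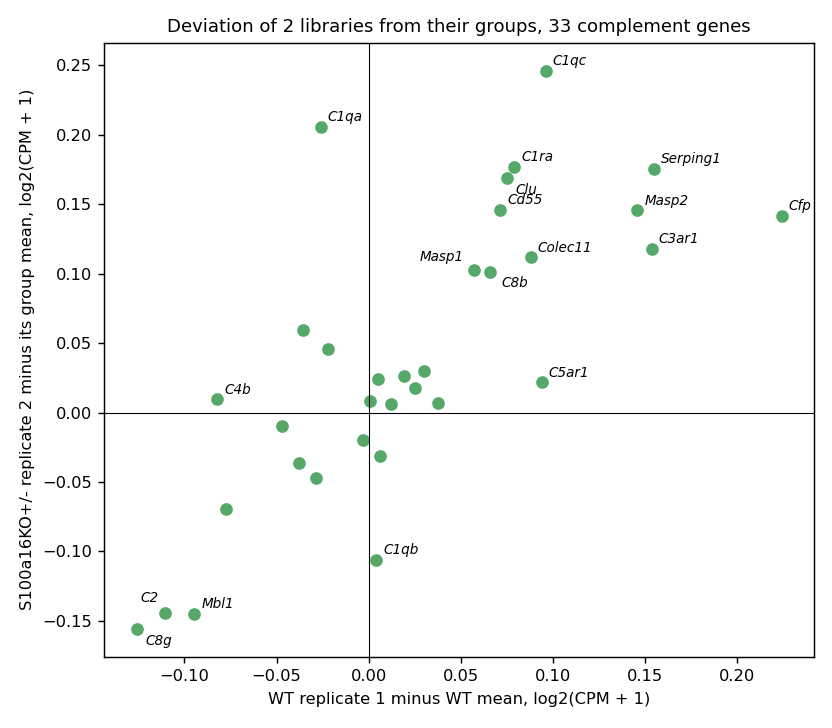
Deviation of WT replicate 1 from the WT mean (horizontal) and of S100a16KO+/- replicate 2 from its group mean (vertical), in log2(CPM + 1), with 1 point for each of the 33 tested complement genes. Genes such as Serping1, Cfp and C3ar1 are high in both libraries and C8g, C2 and Mbl1 low in both, with r = 0.75.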

How the data were processed

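RNA-seq values of 6 libraries were used, 3 per genotype, and no library was left out. Per the submitters' processing notes the tools were cutadapt 1.9, HISAT2 2.0.4, StringTie 1.3.4d, UMI-tools, DESeq2 and edgeR, on mm10. The table deposited by the authors gives an estimated count for each gene and library, not scaled for depth, and the authors' FPKM value, scaled for length and library size. The annotation and the strand setting of the counting are not given in the sources used here. Low estimated counts pile up at 4, so a sequenced fragment was taken as about 4 counts and the detection limit as 3 fragments, or 12 counts (0.167 to 0.187 CPM), which covers counting error only.

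Estimated counts were rounded and tested with edgeR 4.0.16 in R 4.3.3 (TMM, filterByExpr, robust quasi-likelihood fit, two-sided, no covariate), with Benjamini-Hochberg adjustment over 15957 genes. CPM values are TMM-scaled. The procedure was tested on simulated counts. There all genes had the same set spread between libraries beyond counting error, a simpler case than these data. The study names DESeq2, which was an alternative. Ratios of related genes were compared by exact permutation of the libraries. The 35 genes, the 5 ratios, the motifs, the marker lists and the 25 further complement genes were chosen with earlier results of these data known. The values of 1 of the further complement genes are not reported here. Each of the 35 genes is accounted for, and values in every library are given for those with an adjusted p under 0.05 and for the 5 most abundant; S100a16, and Serping1 and C8g, chosen after their values were seen, were added.

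Promoter windows came from RefSeq on GRCm38.p6, with 27 of the 35 genes matched by symbol. The 8 motifs, read on both strands and as written, were TTGCNNAA (C/EBP), TTCNNNGAA (STAT), CAAAGTCCA (HNF4), TGACG (CREB and ATF) and forms of the IRF, NF-kB and HNF1 motifs and of the ER stress response element. Shared 31-base words were counted in GENCODE M21 transcripts. The alternatives tried were DESeq2 1.42.0, median-ratio size factors, other filters on low counts, counts divided by 4, library sizes without the 20 most abundant genes, limma 3.58.1 on log2(FPKM + 1) or log2(FPKM + 0.1), a block for the replicate number, and leaving out each library. Leaving out WT replicate 1 together with S100a16KO+/- replicate 2 was added after the data were seen.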

Additional observations from a re-analysis of the deposited data

How the results depend on the processing

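The count of 19 higher and 2 lower complement genes was the same with DESeq2, median-ratio size factors and no or a stricter filter. It was also the same with counts divided by 4 and library sizes without the 20 most abundant genes. In these settings 13.8% to 31.2% of all tested genes were called. Limma was also run on log2(FPKM + 1) or log2(FPKM + 0.1) over genes with a mean of at least 1 FPKM. There 13 were higher and 1 lower, 0 met the study's criterion and 2 of the further complement genes were called. Over all 9054 genes tested there, 24.6% and 24.4% were called. The limit of 1 FPKM leaves C3ar1, C5ar1 and Cd46 out. With limma and no minimum FPKM, 4 were higher, 0 lower, 0 met the criterion and 0 further genes were called. In this setting 5.33% of all 25718 genes were called, against 22.8% in the main test. The cause of this drop was not tested. Leaving out each library gave 12 to 19 higher and 1 to 2 lower genes, beside 16.5% to 19.9% of all tested genes called. It also gave 0 to 1 past the criterion, 4 to 6 further genes and a median log2 fold change of 0.18 to 0.24. Without WT replicate 1 and S100a16KO+/- replicate 2 together the median was 0.17. Of the 21 called genes, 4 (Colec11, C8a, C8b and Cd55) kept their call in every alternative that tested them. The sign turned only in genes that had not passed. With 1 library left out C8g ran from -0.0716 to 0.0638 (above 0 without WT replicate 2 or 3 or S100a16KO+/- replicate 2), Cfp from -0.13 to 0.14 (below 0 without WT replicate 3 or S100a16KO+/- replicate 2) and C1ra from -0.0146 to 0.16 (below 0 without S100a16KO+/- replicate 2).

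Replicate numbers are shared by the groups, but same-numbered libraries did not deviate together (r = -0.05, -0.02 and 0.05 over all tested genes), and WT replicate 1 correlated best with S100a16KO+/- replicate 2 (0.08). With the replicate number as a block, 14 complement genes were higher and 2 lower with a median of 0.20. In this setting 19.3% of all 15957 tested genes were called, and 4 further complement genes. Fcna, Masp1, C4bp, Clu, C3ar1 and the further gene Cpn2 no longer passed. Low counts limit C5ar1, C3ar1, Cd46, Itgax, Cfd and C7.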
